A study of Mus musculus with 30 samples.

Results

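10 genes known as transcriptional targets of p53 were followed: Cdkn1a, Btg2, Plk2, Ccng1, Bbc3, Pmaip1, Phlda3, Zmat3, Mdm2 and Gdf15. They were chosen by symbol, through the Ensembl identifiers of the count tables, and all 10 were found among the 57133 genes listed in both tables. Poly-A RNA of whole mouse kidney had been sequenced in 30 libraries, and the study compared transgenic (TG) with wild-type (WT) kidneys early after ischemia-reperfusion injury (IRI). TG is the labels' Gsta2-H2BeGFP genotype, whose name denotes histone H2B fused to enhanced green fluorescent protein. The injured groups were TG and WT males at 4 h after IRI combined with nephrectomy, with 6 libraries each. Their uninjured counterparts were TG and WT males with nephrectomy (NX) alone, with 3 libraries each. No-surgery kidneys came from TG females, WT females, TG males and WT males, again with 3 libraries each. Strain, age, the promoter and cell type of the transgene, and the number of lines or animals behind the libraries are not given in the sources used here.

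The p53 protein, encoded by Trp53, is a transcription factor that is normally degraded with the help of its own target Mdm2 and that accumulates when DNA is damaged or a cell is otherwise stressed. It binds DNA at paired half-sites, and its targets halt the cell cycle, promote apoptosis or feed back on p53. Several of the same genes, Btg2, Plk2, Gdf15 and Cdkn1a among them, are also known as early response genes that other transcription factors can induce. In the kidney, Cdkn1a and Gdf15 are known as genes raised in injured tubules.

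Promoter windows that reach from 250 bases before to 50 bases after each RefSeq start (assembly GRCm38.p6) were matched for 8 of the 10 genes. The 5 windows printed here are those that hold a searched motif, and they belong to 4 genes that rose after IRI in both genotypes and to 1, Ccng1, that fell. A p53 response element, which is 2 adjoining half-sites with up to 2 mismatches in all, was found in 0.326% of 32817 promoter windows. Of the 10 genes it was in Cdkn1a (chr17:29090729-29091028, plus strand), upstream of the more distal of the gene's starts, and in Ccng1 (chr11:40755237-40755536, minus strand). Each of the elements had 1 mismatch, and they began at position -51 from the start in Cdkn1a and -195 in Ccng1. A single exact half-site, held by 8.36% of windows, was also in Mdm2 (chr10:117710709-117711008, minus strand) at position -186 and in Cdkn1a at position -73. The cyclic AMP response element TGACGTCA, held by 1.79% of windows, was in Btg2 (chr1:134079106-134079405, minus strand) at position -166 and in Plk2 (chr13:110394794-110395093, plus strand) at position -62. Both strands were searched, half-sites within a full element were counted as half-sites too, and a match is a description of letters, not of binding. Capitals mark these matches in the sequences below, which run 5′ to 3′ on the strand of the gene.
Cdkn1a: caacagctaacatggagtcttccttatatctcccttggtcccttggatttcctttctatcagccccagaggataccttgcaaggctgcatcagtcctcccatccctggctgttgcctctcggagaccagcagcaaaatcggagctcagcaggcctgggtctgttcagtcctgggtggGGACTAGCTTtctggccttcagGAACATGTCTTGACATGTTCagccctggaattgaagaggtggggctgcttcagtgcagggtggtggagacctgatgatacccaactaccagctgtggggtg
Ccng1: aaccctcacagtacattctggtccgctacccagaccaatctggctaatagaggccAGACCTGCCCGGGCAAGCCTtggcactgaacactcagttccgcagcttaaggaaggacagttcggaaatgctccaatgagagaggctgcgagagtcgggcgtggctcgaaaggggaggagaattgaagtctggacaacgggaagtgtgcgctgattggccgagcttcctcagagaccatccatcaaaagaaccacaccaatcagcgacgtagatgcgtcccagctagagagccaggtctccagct
Mdm2: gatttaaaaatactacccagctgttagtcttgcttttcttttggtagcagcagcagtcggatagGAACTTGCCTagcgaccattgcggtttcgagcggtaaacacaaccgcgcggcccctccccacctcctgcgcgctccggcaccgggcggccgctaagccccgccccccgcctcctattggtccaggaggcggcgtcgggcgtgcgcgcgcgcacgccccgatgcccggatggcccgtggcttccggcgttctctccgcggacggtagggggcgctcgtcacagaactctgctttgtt
Btg2: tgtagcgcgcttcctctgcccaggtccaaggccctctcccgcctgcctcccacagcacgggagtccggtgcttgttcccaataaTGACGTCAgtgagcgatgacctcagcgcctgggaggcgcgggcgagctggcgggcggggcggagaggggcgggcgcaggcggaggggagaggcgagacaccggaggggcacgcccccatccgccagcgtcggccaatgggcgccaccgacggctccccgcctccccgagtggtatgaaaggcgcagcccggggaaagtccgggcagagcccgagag
Plk2: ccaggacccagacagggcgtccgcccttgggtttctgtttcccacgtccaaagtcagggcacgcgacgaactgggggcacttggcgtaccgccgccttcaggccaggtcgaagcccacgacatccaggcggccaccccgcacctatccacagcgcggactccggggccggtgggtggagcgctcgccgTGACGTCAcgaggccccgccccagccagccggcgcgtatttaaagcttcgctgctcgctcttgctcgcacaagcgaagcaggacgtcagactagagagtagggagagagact
The windows of the other matched genes, Bbc3, Phlda3 and Gdf15, held none of these motifs. The CArG box bound by serum response factor, in 1.63% of all windows, and the AP-1 site TGANTCA, in 7.81%, were in none of the matched windows of the 10 genes.

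Total counts ranged over 59574069 to 91354407 in the 18 NX and IRI libraries and over 49040915 to 66446450 in the 12 no-surgery libraries, which were deposited as a separate table. Levels are given as CPM, the counts of a gene per 1000000 counts of its library, on library sizes scaled within each table. The transgene's EGFP row held 86 to 1294 counts in the 15 TG libraries and 0 in 14 of the 15 WT libraries. The exception had 206 EGFP counts and carries the label WT IRI replicate 1; the counts of the 10 genes and the genotype differences after IRI are also given without it. A further 3 libraries held over 20 CPM of the fat-cell gene Adipoq: WT NX replicate 0, WT no-surgery female replicate 1 and TG no-surgery male replicate 1. Replicate 0 is the library of a group that carries no replicate number in its title. Proximal tubule markers summed to at least 19610 CPM in every library, and all 10 were detected in each group. The labels do not say whether libraries came from separate animals, so p-values measure the spread between libraries. In whole-kidney RNA, a change in the number of cells of a type and a change of RNA per cell cannot be told apart.

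Of the 10 genes, 7 rose after IRI in both genotypes, and they covered arrest (Cdkn1a, Btg2, Plk2), apoptosis (Bbc3, Pmaip1), feedback on p53 (Mdm2) and secretion (Gdf15). In both genotypes the rise was between about 2-fold for Mdm2 and over 20-fold for Cdkn1a and Gdf15, while Ccng1 fell by less than 1.3-fold. In TG kidneys 7 rose, 1 fell and 2 did not pass the test, where 29.4% of all 19264 genes tested passed, 16.4% higher and 13% lower. In WT kidneys 7 rose, 2 fell and 1 did not pass, where 30.9% of the same genes passed, 16.8% higher and 14.1% lower. The median log2 fold change of the 10 genes was 2.51 in TG and 2.99 in WT kidneys, beside -0.0073 in TG and -0.0066 in WT kidneys for all genes tested. In each genotype, 8 of the 10 genes had IRI and NX libraries that did not overlap, as did 31.6% of all genes in TG and 26.5% in WT kidneys. All folds and adjusted p-values come from edgeR's quasi-likelihood test with Benjamini-Hochberg adjustment over all genes tested, and errors after log2 fold changes are standard errors. Without the library labelled WT IRI replicate 1, the WT comparison again gave 7 genes higher and 2 lower. Of the gene lists described further on, the cell cycle list had 3 rises in WT without that library in place of 4, and the counts of the other lists that are not cell type markers were as given in WT IRI against WT NX.

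Cdkn1a encodes p21, an inhibitor of cyclin-dependent kinases, and lies on chromosome 17 (ENSMUSG00000023067, 29309950 to 29319701, plus strand; GRCm39, as are the other gene positions). Its level was 94.5 to 122 CPM (median 108) in the TG IRI libraries, against 3.69, 3.73 and 3.97 CPM in TG NX. In the WT IRI libraries it was 95.9 to 128 CPM (median 103), against 7.54, 3.47 and 2.53 CPM in WT NX. Every IRI library was thus more than 10 times above every NX library, and the genotypes overlapped within each treatment. The log2 fold change was 4.82 ± 0.27 in TG (adjusted p = 1.29e-10) and 4.59 ± 0.26 in WT kidneys (adjusted p = 1.83e-10). An antisense gene on the opposite strand, AC167363.2, overlaps Cdkn1a and had at most 142 counts in any NX or IRI library. How strand entered the counting is not given in the sources used here, so reads of that pair cannot be told apart.

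Btg2 encodes an antiproliferative protein of the BTG and TOB family that promotes shortening of mRNA tails, and lies on chromosome 1 (ENSMUSG00000020423, 134002908 to 134006858, minus strand). It measured 102 to 190 CPM (median 165) in TG IRI libraries, against 12.5, 10.1 and 12.8 CPM in TG NX libraries. In WT kidneys it measured 209 to 268 CPM (median 238) after IRI, against 10.2, 12.01 and 10.46 CPM after NX. No IRI library came near an NX library in either genotype. Its log2 fold change was 3.73 ± 0.18 in TG (adjusted p = 1.92e-11) and 4.46 ± 0.19 in WT kidneys (adjusted p = 2.52e-12). Per kilobase of exon Btg2 was the most abundant of the 10 genes after IRI, at 57.0 CPM per kb in TG and 87.3 CPM per kb in WT kidneys.

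Plk2, a polo-like kinase known for its part in centriole duplication, lies on chromosome 13 (ENSMUSG00000021701, 110531580 to 110537378, plus strand). It was counted at 45.1 to 68.4 CPM (median 56.4) in TG IRI libraries, against 9.39, 7.95 and 10.9 CPM in TG NX libraries. WT kidneys held 73.0 to 97.0 CPM (median 85.5) after IRI, against 9.30, 6.20 and 7.19 CPM after NX. The IRI libraries were all above the NX libraries, with a log2 fold change of 2.57 ± 0.16 in TG (adjusted p = 7.51e-10) and 3.49 ± 0.17 in WT kidneys (adjusted p = 1.62e-11).

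Ccng1 encodes cyclin G1, which recruits a phosphatase to Mdm2 and restrains p53, and lies on chromosome 11 (ENSMUSG00000020326, 40639379 to 40646138, minus strand). It stood at 172 to 208 CPM (median 190.3) in TG IRI libraries, against 255, 233 and 235 CPM in TG NX libraries. WT kidneys had 162 to 214 CPM (median 197) after IRI, against 234, 227 and 229 CPM after NX. In both genotypes every IRI library lay below every NX library, but the gap was narrow. The log2 fold change was -0.34 ± 0.08 in TG (adjusted p = 0.00451) and -0.25 ± 0.08 in WT kidneys (adjusted p = 0.0283). The WT call was lost on leaving out any 1 of WT NX replicates 0, 1 and 2 or WT IRI replicate 4, with adjusted p up to 0.0894, whereas the TG call held without each library in turn. Per kilobase it was the most abundant of the 10 genes in NX kidneys, at 68.6 CPM per kb in TG and 65.4 CPM per kb in WT, beside 8.34 CPM per kb in TG and 7.35 CPM per kb in WT for the next gene, Mdm2.

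Bbc3 and Pmaip1 encode PUMA and NOXA, small proteins of the BCL2 family that trigger apoptosis at mitochondria. Bbc3, on chromosome 7 (ENSMUSG00000002083, 16042318 to 16052130, plus strand), measured 4.398 to 11.2 CPM (median 5.65) in TG IRI libraries, against 0.644, 1.28 and 1.67 CPM in TG NX. In WT IRI libraries it measured 5.14 to 10.1 CPM (median 6.28), against 0.974, 1.04 and 1.32 CPM in WT NX. Its coefficient of variation within the IRI groups was the largest of the 7 risers, at 39.4% in TG and 29.8% in WT. No IRI library of Bbc3 reached down to an NX library all the same. The log2 fold change was 2.44 ± 0.35 in TG (adjusted p = 2.89e-05) and 2.68 ± 0.36 in WT kidneys (adjusted p = 1.37e-05).

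Pmaip1, on chromosome 18 (ENSMUSG00000024521, 66591604 to 66598636, plus strand), had 38.0 to 88.2 CPM (median 52.5) in TG IRI libraries, against 9.02, 7.06 and 5.40 CPM in TG NX. WT IRI libraries had 40.0 to 91.4 CPM (median 65.8), against 5.12, 9.06 and 5.89 CPM in WT NX. The lowest IRI library was therefore about 4 times the highest NX library. The log2 fold change was 3.02 ± 0.29 in TG (adjusted p = 2.61e-07) and 3.31 ± 0.30 in WT kidneys (adjusted p = 9.41e-08).

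Phlda3, whose protein competes with Akt for membrane lipids and so dampens survival signalling, lies on chromosome 1 (ENSMUSG00000041801, 135693857 to 135696874, plus strand). It was 2.85 to 4.24 CPM (median 3.39) in TG IRI libraries, against 3.09, 3.01 and 1.97 CPM in TG NX, where the log2 fold change was 0.36 ± 0.42 (adjusted p = 0.568). In WT kidneys it was 2.46 to 4.25 CPM (median 3.26) after IRI, against 16.7, 2.44 and 2.90 CPM after NX, with a log2 fold change of -1.18 ± 0.40 (adjusted p = 0.0294). That fall rested on 1 NX library: without WT NX replicate 0 the log2 fold change was 0.29 (adjusted p = 0.409), and without WT IRI replicate 2 the call was lost too. The same NX library held 35.7 CPM of Adipoq, and its 6 fat-cell markers summed to 874 CPM, against 0 to 51.4 CPM in the other NX and IRI libraries. Across all 30 libraries the 3 highest Phlda3 levels, 16.7, 13.6 and 9.16 CPM, were in the 3 libraries with over 20 CPM of Adipoq; the part of fat-cell RNA in the Phlda3 levels was not tested.

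**Figure D1:**
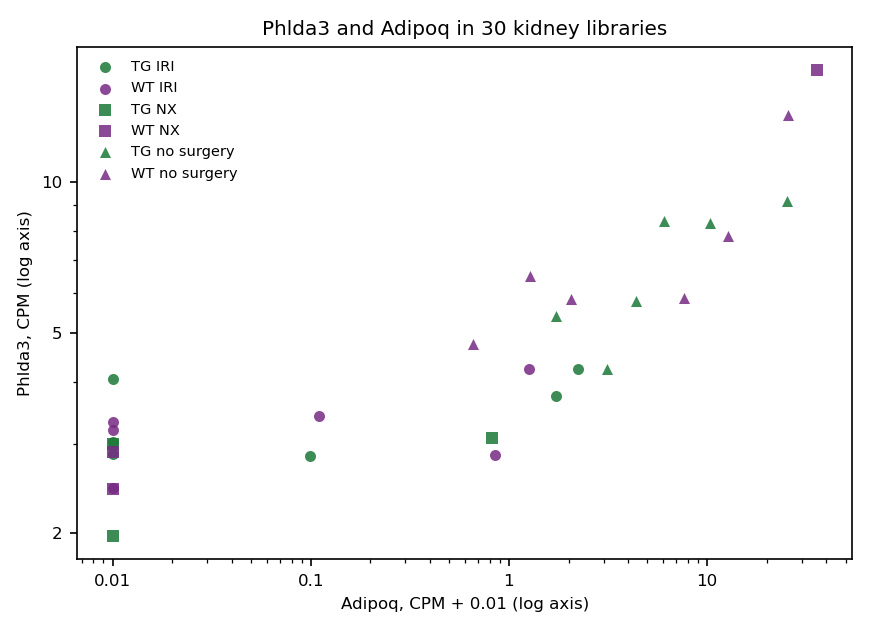
Phlda3 against Adipoq in CPM (log axes, with 0.01 CPM added to Adipoq) in the 30 libraries, by genotype (colour) and treatment (shape). The 3 libraries furthest right, each over 20 CPM of Adipoq, hold the 3 highest Phlda3 levels, up to 16.7 CPM.

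Zmat3, a zinc finger protein that binds RNA, lies on chromosome 3 (ENSMUSG00000027663, 32388941 to 32420163, minus strand). It was 27.5 to 44.1 CPM (median 37.3) in TG IRI libraries, against 35.0, 34.5 and 40.1 CPM in TG NX. In WT kidneys it was 31.0 to 38.1 CPM (median 34.0) after IRI, against 29.9, 46.2 and 45.0 CPM after NX. The groups overlapped in both genotypes, with log2 fold changes of -0.02 ± 0.14 (adjusted p = 0.940) in TG and -0.25 ± 0.14 (adjusted p = 0.190) in WT kidneys. Without WT NX replicate 0, the lowest of its group, the WT log2 fold change was -0.42 and passed the test (adjusted p = 0.0244).

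Mdm2, the ubiquitin ligase that marks p53 for degradation, lies on chromosome 10 (ENSMUSG00000020184, 117524780 to 117546663, minus strand). Its level was 80.2 to 105 CPM (median 93.9) in TG IRI libraries, against 50.6, 34.5 and 42.2 CPM in TG NX. WT IRI libraries ran over 49.9 to 105 CPM (median 75.7), against 41.5, 33.6 and 36.9 CPM in WT NX. Mdm2 moved least of the 7 risers. Its lowest WT IRI library, replicate 5 (49.9 CPM), lay above the WT NX libraries but within the range of the TG NX libraries. That library also held the lowest Ccng1 of the 12 IRI libraries, the highest mitochondrial share of counts of all 30 libraries (16.3%, with 15.02% in WT IRI replicate 4 and 9.52 to 11.1% in the other IRI libraries) and an erythroid marker sum of 1298 CPM; their part in its Mdm2 level was not tested. The log2 fold change was 1.13 ± 0.18 in TG (adjusted p = 6.85e-05) and 1.04 ± 0.18 in WT kidneys (adjusted p = 0.000164).

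Gdf15 encodes a secreted stress cytokine of the transforming growth factor family, and lies on chromosome 8 (ENSMUSG00000038508, 71082043 to 71085106, minus strand). It was 50.4 to 94.0 CPM (median 81.7) in TG IRI libraries, against 2.97, 2.08 and 3.84 CPM in TG NX. In WT IRI libraries it was 56.8 to 99.7 CPM (median 82.2), against 2.66, 3.82 and 2.75 CPM in WT NX. Its rise was close to that of Cdkn1a, and no IRI library overlapped an NX library, with a log2 fold change of 4.70 ± 0.27 in TG (adjusted p = 1.83e-10) and 4.73 ± 0.27 in WT kidneys (adjusted p = 1.66e-10).

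**Figure D2:**
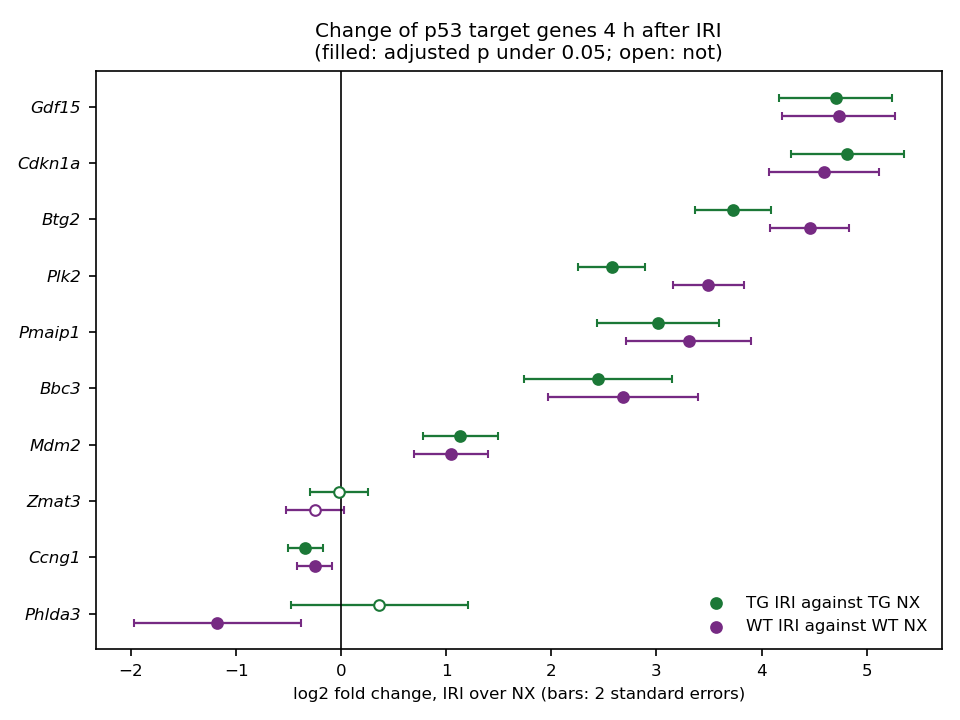
Log2 fold change of IRI over NX for each of the 10 genes in TG (green) and WT (purple) kidneys, with bars of 2 standard errors; filled points had an adjusted p under 0.05. There are 7 genes that lie to the right of 0 in both genotypes, Ccng1 lies slightly to the left in both, and Phlda3 lies on opposite sides in TG (0.36) and WT (-1.18).

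**Figure D3:**
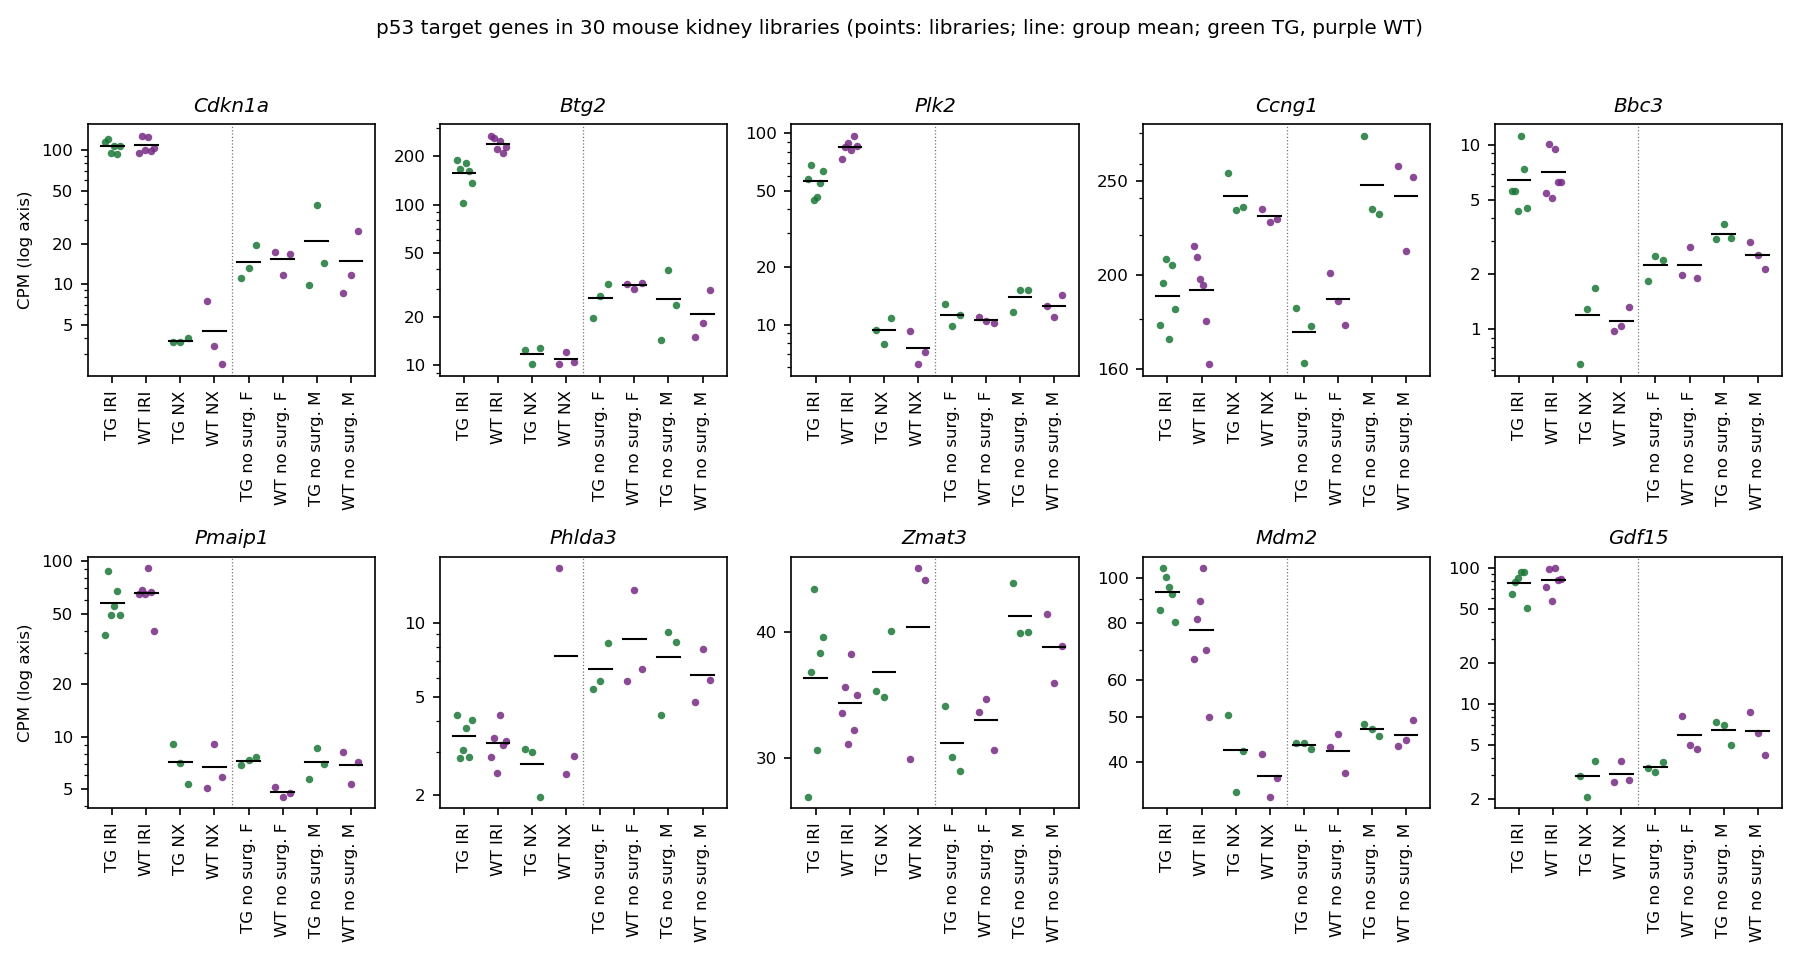
CPM on a log axis for each gene in every library, with TG in green, WT in purple and the group mean as a line; the dotted line parts the NX and IRI table from the no-surgery table. Within each genotype the IRI libraries of 7 genes stand above the NX libraries, whereas Ccng1, Phlda3 and Zmat3 do not show this. Across genotypes Mdm2 does not, since its lowest WT IRI library (49.9 CPM) lies below its highest TG NX library (50.6 CPM).

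Trp53 itself did not pass the test. It averaged 27.5 ± 3.35 CPM in TG IRI libraries and 21.8 ± 1.96 CPM in TG NX libraries (SD, n = 6 and 3, as for the other IRI and NX means), a log2 fold change of 0.33 ± 0.13 (edgeR adjusted p = 0.0515). In WT kidneys it averaged 25.98 ± 3.35 CPM after IRI and 22.9 ± 3.19 CPM after NX, a log2 fold change of 0.18 ± 0.12 (adjusted p = 0.295). Mdm4, the partner of Mdm2 in restraining p53, had log2 fold changes of -0.11 ± 0.10 in TG (adjusted p = 0.430) and -0.17 ± 0.10 in WT kidneys (adjusted p = 0.193). Of 10 regulators of p53 tested out of 12 listed, 1 rose and 4 fell in TG, and 2 rose and 2 fell in WT kidneys. The kinases Atm and Atr, which phosphorylate p53 after DNA damage, fell in both: the log2 fold change of Atm was -1.01 ± 0.17 in TG and -0.75 ± 0.17 in WT, and that of Atr was -0.55 ± 0.11 in TG and -0.61 ± 0.11 in WT (adjusted p up to 0.00190). Usp7, a deubiquitinase of Mdm2 and p53, rose by 0.34 ± 0.08 in TG and 0.27 ± 0.08 in WT, and Ppm1d, a phosphatase that shuts the response down, had a log2 fold change of 0.08 ± 0.11 in TG (adjusted p = 0.632) and rose by 0.32 ± 0.11 in WT (adjusted p = 0.0368).

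Among 27 further p53 targets, 8 rose and 6 fell in TG and 11 rose and 4 fell in WT kidneys; the list was compiled with results of these data known. Its median log2 fold change was 0.11 in TG and 0.08 in WT kidneys. The 3 with the smallest p among the risers were Plk3, a stress kinase related to Plk2, Sfn, the 14-3-3 protein that holds cells before mitosis, and Gadd45a, a growth arrest gene. Plk3 averaged 414 ± 47.7 CPM in TG IRI and 8.79 ± 4.56 CPM in TG NX libraries, and 359 ± 140.2 CPM in WT IRI and 8.59 ± 4.64 CPM in WT NX libraries. Sfn rose by 3.77 ± 0.28 in TG and 3.61 ± 0.28 in WT, and Gadd45a by 3.28 ± 0.25 in TG and 3.34 ± 0.26 in WT (log2; adjusted p up to 1.50e-08). The falling members included Ei24, Rrm2b (a ribonucleotide reductase subunit used in DNA repair) and Tigar (a regulator of glycolysis), which fell in both genotypes. The log2 fold change of Rrm2b was -0.65 ± 0.11 in TG and -0.56 ± 0.11 in WT kidneys. That of Ei24 was -0.28 ± 0.06 in TG and -0.45 ± 0.06 in WT, and that of Tigar -0.59 ± 0.15 in TG and -0.44 ± 0.15 in WT kidneys (adjusted p up to 0.0326).

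Of the 12 BCL2 family genes tested beside Bbc3 and Pmaip1, 5 rose in each genotype, and 3 fell in TG and 1 in WT kidneys. Those with the smallest p were the survival genes Mcl1, at 1.70 ± 0.13 in TG and 1.67 ± 0.13 in WT (log2), and Bcl2l1, at 1.41 ± 0.14 in TG and 1.08 ± 0.14 in WT, with the pro-apoptotic Bcl2l11 at 0.79 ± 0.16 in TG and 0.95 ± 0.16 in WT. Bid, which links death receptors to mitochondria, fell, with log2 fold changes of -0.51 ± 0.13 in TG and -0.40 ± 0.13 in WT kidneys. Among 5 further CDK inhibitors, 1 rose and 1 fell in TG and 2 rose in WT; Cdkn2b averaged 2.24 ± 0.590 CPM in TG IRI and 0.843 ± 0.575 CPM in TG NX libraries, and 2.85 ± 0.590 CPM in WT IRI and 0.453 ± 0.253 CPM in WT NX libraries. A further list held 10 cell cycle genes known to be lowered through p21 and the DREAM repressor complex. By edgeR 1 rose and 0 fell in TG and 4 rose and 0 fell in WT kidneys, and 0 were lower in either genotype at an unadjusted p under 0.05 or by DESeq2 or limma-voom. Their median log2 fold change was 0.65 in TG and 0.70 in WT kidneys. These genes were low before injury, with means of 0.0876 to 5.02 CPM in TG NX and 0.109 to 4.87 CPM in WT NX libraries. Cdc20, an activator of the anaphase-promoting complex, was the one that rose in both, by 0.96 ± 0.25 in TG (adjusted p = 0.00708) and 0.97 ± 0.25 in WT kidneys (adjusted p = 0.00642).

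Of 13 family relatives of the 10 genes, Plk3 among them, 7 rose and 1 fell in TG, and 8 rose and 0 fell in WT kidneys (0 also at an unadjusted p under 0.05 and by DESeq2 and limma-voom). On the log2 scale Btg3 rose by 2.19 ± 0.14 in TG and 2.16 ± 0.14 in WT, Btg1 by 1.71 ± 0.14 in TG and 1.96 ± 0.14 in WT, and Phlda1 by 2.57 ± 0.25 in TG and 3.14 ± 0.26 in WT kidneys. All 8 immediate early genes rose in both genotypes, with median log2 fold changes of 4.38 in TG and 4.98 in WT. Integrated stress response genes rose in 8 of 8 cases in TG and 7 of 8 in WT, with medians of 3.30 in TG and 3.29 in WT. Atf3, a stress-induced repressor in that list, averaged 485 ± 102 CPM in TG IRI and 1.06 ± 0.309 CPM in TG NX libraries, and 686 ± 150.3 CPM in WT IRI and 0.602 ± 0.420 CPM in WT NX libraries. Some of the cell type markers also moved with injury. Of 8 leukocyte markers, 4 rose and 1 fell in TG, and 4 rose and 0 fell in WT kidneys. Of 10 proximal tubule markers, 3 fell in TG and 5 in WT kidneys, and the others did not pass. The summed level of 8 leukocyte markers was 20.1 to 62.0 CPM in TG IRI against 12.6 to 22.9 CPM in TG NX libraries, and 33.8 to 108 CPM in WT IRI against 11.9 to 15.7 CPM in WT NX libraries. Proximal tubule markers summed to 28530 to 33920 CPM in TG IRI against 32080 to 38630 CPM in TG NX, and to 26460 to 31430 CPM in WT IRI against 37800 to 44690 CPM in WT NX libraries. The 5 erythroid markers, of which 4 rose in TG and 5 in WT, summed to 28.6 to 148 CPM in TG IRI against 3.64 to 18.7 CPM in TG NX, and to 110 to 1298 CPM in WT IRI against 35.6 to 119 CPM in WT NX libraries. The part of these shifts in the changes of the 10 genes was not tested.

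Between TG and WT kidneys after IRI, 1 of the 10 genes, Plk2, differed by the test and was lower in TG. In all, 12 of 17111 genes tested passed (0.0701%), 11 of them lower in TG (0.0643%). Plk2 was 45.1, 46.4, 55.1, 57.8, 63.6 and 68.4 CPM in TG IRI libraries, against 73.0, 81.9, 85.1, 85.9, 88.7 and 97.0 CPM in WT IRI libraries. No TG library reached the lowest WT library, and the log2 fold change was -0.62 ± 0.10 (edgeR adjusted p = 0.0435). Btg2 had much the same difference, at 102 to 190 CPM in TG and 209 to 268 CPM in WT libraries without overlap, but did not pass (log2 fold change -0.62 ± 0.13, adjusted p = 0.0904). Groups without overlap were seen in 0.795% of all genes tested. Mdm2 was the gene furthest in the other direction, at 0.27 ± 0.13 (adjusted p = 0.385), with 80.2 to 105 CPM in TG and 49.9 to 105 CPM in WT libraries. For Cdkn1a the log2 fold change was -0.04 ± 0.09 and for Gdf15 -0.09 ± 0.16, and 2 standard errors to either side reach from -0.21 to 0.14 for Cdkn1a and from -0.40 to 0.23 for Gdf15. Without the EGFP-positive library labelled WT these values were 0.01 for Cdkn1a, -0.03 for Gdf15 and 0.28 for Mdm2, and none passed the test (adjusted p of 0.956 for Cdkn1a, 0.951 for Gdf15 and 0.389 for Mdm2).

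The Plk2 call was narrow. Leaving out 1 library at a time moved its adjusted p over 0.0313 to 0.118, and the call was lost without any 1 of 9 of the 12 libraries, that is, all but WT IRI replicates 2 and 3 and TG IRI replicate 1. Without the EGFP-positive library that is labelled WT IRI replicate 1, the log2 fold change was -0.62 (adjusted p = 0.0632) for Plk2 and -0.60 (adjusted p = 0.127) for Btg2. Of the immediate early genes, Fos, Jun and Junb were also among those lower in TG. Fos averaged 201 ± 41.8 CPM in TG IRI and 428 ± 108 CPM in WT IRI libraries, Jun 414 ± 108 CPM in TG and 1052 ± 361 CPM in WT, and Junb 128 ± 13.8 CPM in TG and 186 ± 20.5 CPM in WT (edgeR adjusted p = 0.0435 each). These calls were as narrow: leaving out 1 of the 12 libraries at a time lost the call of Fos in 8 cases, of Jun in 8 and of Junb in 10, with adjusted p up to 0.132, and in 7 cases 0 genes of the whole table passed. Without the EGFP-positive library the adjusted p was 0.0527 for Fos, 0.0475 for Jun and 0.0632 for Junb. Erythroid markers summed to 28.6 to 148 CPM in TG IRI against 110 to 1298 CPM in WT IRI libraries, and the leukocyte markers to 20.1 to 62.0 CPM in TG IRI against 33.8 to 108 CPM in WT IRI libraries. By edgeR, 0 of the 5 erythroid and 0 of the 8 leukocyte markers passed between TG and WT after IRI, and the ranges overlapped. The median log2 fold change was nevertheless -2.905 for the erythroid and -0.73 for the leukocyte markers. Between TG and WT NX kidneys the erythroid median was -2.43, where 0 of the 5 passed as well. The part of these markers in the Plk2 and Btg2 differences was not tested. The difference between the genotypes' injury responses was tested as an interaction and passed for 0 of 19264 genes by edgeR (1848 had an unadjusted p under 0.05), 0 by limma-voom and 41 by DESeq2, of which Plk2 was 1. For Plk2 it was -0.92 ± 0.20 on the log2 scale (unadjusted p = 0.000212), for Btg2 -0.73 ± 0.21, and both had an adjusted p of 0.376; without the EGFP-positive library again 0 genes passed by edgeR.

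**Figure D4:**
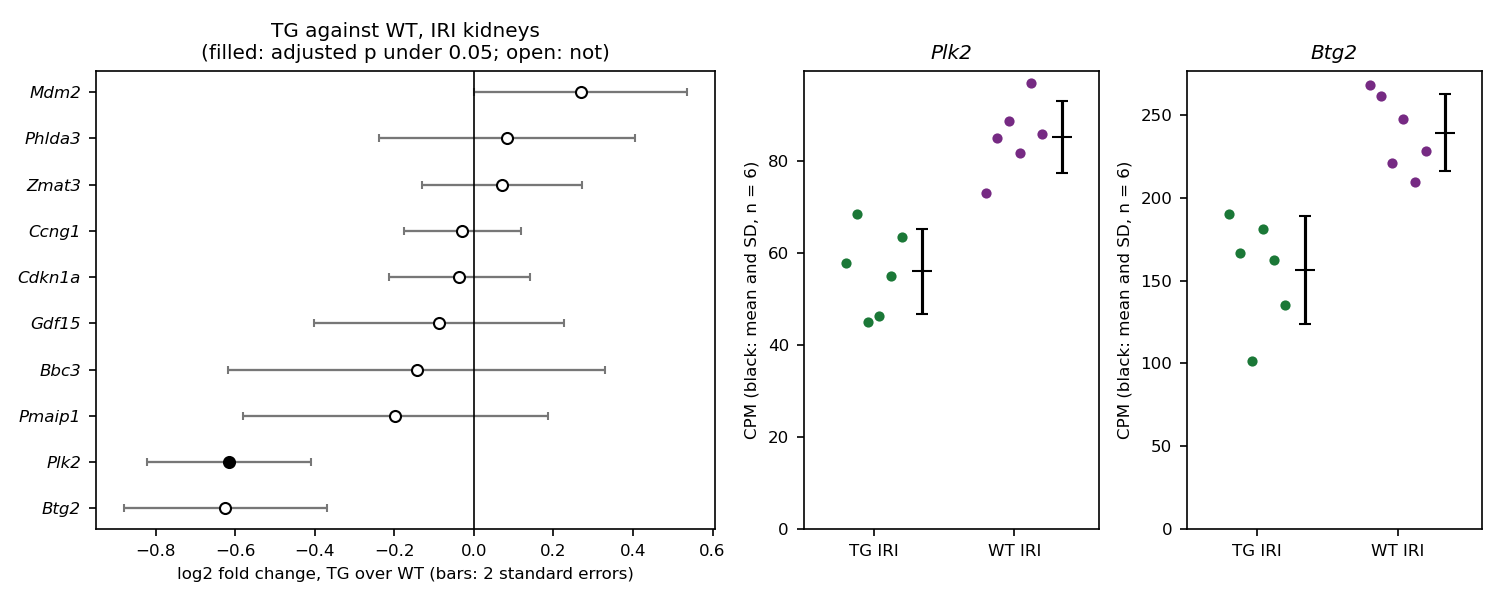
Left, log2 fold change of TG over WT in IRI kidneys for each gene with bars of 2 standard errors, filled where the adjusted p was under 0.05; right, CPM of Plk2 and Btg2 in each IRI library with mean and SD. TG libraries lie below all WT libraries for both genes, at 45.1 to 68.4 CPM against 73.0 to 97.0 CPM for Plk2.

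Within the 12 IRI libraries the 10 genes did not share 1 order of libraries. The library labelled WT IRI replicate 3 was among the 3 highest for 7 of the 10 genes and held the highest Mdm2, Phlda3, Gdf15 and Pmaip1, and the library labelled WT IRI replicate 1 was among the 3 highest for 6. TG IRI replicate 2 held the lowest Bbc3, Plk2 and Btg2 and the highest Zmat3. Pearson's r of log2 CPM between Cdkn1a and the other 9 genes ran over -0.0973 to 0.528 across the 12 libraries, and none of the 9 relations passed after adjustment (permutation test, lowest adjusted p = 0.558 for r and 0.663 for Spearman's rho). The 2 ends were Zmat3 (r = -0.0973, rho = -0.119) and Phlda3 (r = 0.528, rho = 0.538). Without the 2 libraries farthest from the median of Cdkn1a, WT IRI replicates 1 and 3, r ran over -0.435 to 0.436, and without the first of them alone over -0.284 to 0.581. Within the 6 WT libraries Bbc3 had r = 0.966 with Cdkn1a (rho = 0.829, exact permutation p = 0.0181 for r, adjusted p = 0.163). These 6 include the EGFP-positive library, WT IRI replicate 1, and no r within WT was computed without it. Over the IRI libraries of both genotypes without WT IRI replicates 1 and 3, Bbc3 had r = 0.054 with Cdkn1a. Within the 6 TG libraries r ran over -0.561 to 0.663.

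Among all pairs of the 10 genes over the 12 libraries, the highest r was 0.738 for Bbc3 with Gdf15, followed by 0.729 for Plk2 with Btg2, and the lowest was -0.536 for Btg2 with Zmat3. After centring within genotype, with the EGFP-positive library taken as WT, Plk2 with Btg2 had an r of 0.103. The highest were then 0.753 for Mdm2 with Pmaip1 and 0.732 for Bbc3 with Gdf15. These libraries share 1 table and its scaling. Of 13140 genes with a mean over 1 CPM, the 5 whose level followed Cdkn1a most closely over the 12 libraries after centring within genotype were Baiap2l1 (r = 0.873), Mms19 (0.837), Pxn (0.825), Pcsk7 (0.812) and Tnip2 (0.799). None of the further p53 targets was among these 5. The 10 genes were left out of this ranking, and their highest r with Cdkn1a after the same centring was 0.554, for Phlda3.

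**Figure D5:**
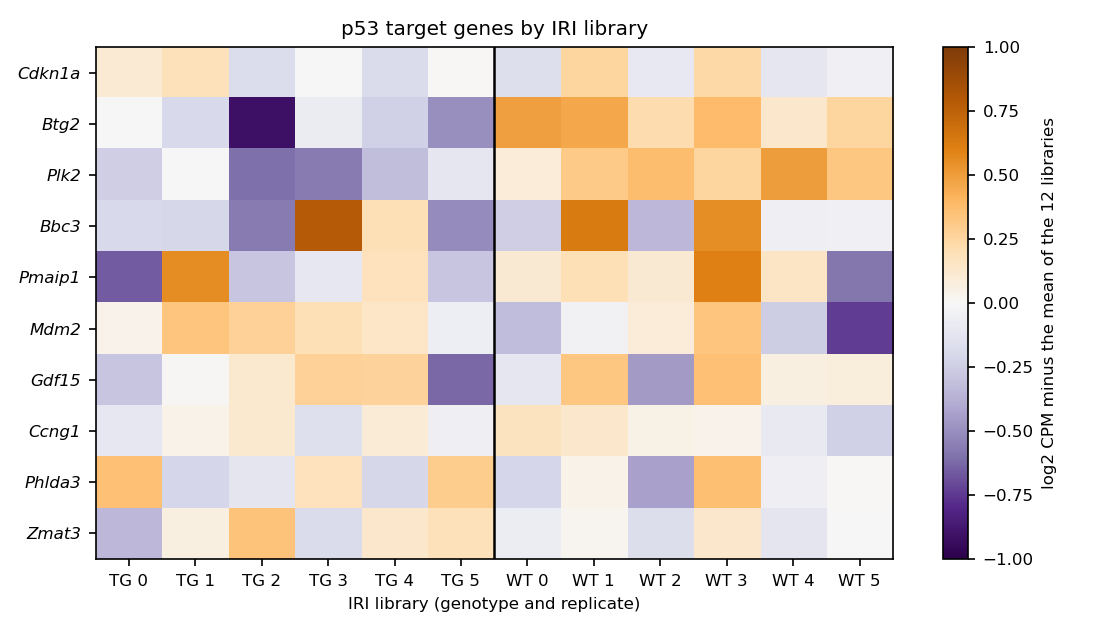
Log2 CPM of each gene in each IRI library minus that gene's mean over the 12 libraries, with TG libraries on the left. Btg2 and Plk2 are lower in each TG column than in every WT column, and WT replicates 1 and 3 are above the mean for most genes.

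Without injury the genotypes differed in 0 of the 10 genes by edgeR, DESeq2 or limma-voom in NX kidneys, no-surgery males or no-surgery females. At an unadjusted p under 0.05 there were 0 in NX kidneys, 0 in males and 2 in females. Between TG and WT NX kidneys 2 of 17100 genes passed (0.0117%), between no-surgery males 1 of 19126 (0.00523%) and between no-surgery females 8 of 19126 (0.0418%). The 2 of the 10 genes with an unadjusted p under 0.05 in females were Pmaip1 and Gdf15. Pmaip1 was 6.85, 7.31 and 7.63 CPM in TG females, against 5.16, 4.54 and 4.74 CPM in WT females (log2 fold change 0.59 ± 0.18, adjusted p = 0.292). Gdf15 was 3.41, 3.18 and 3.74 CPM in TG females, against 8.18, 4.995 and 4.70 CPM in WT females (-0.79 ± 0.27, adjusted p = 0.393). These 2 genes had no overlap between the genotypes, as did 16.5% of all genes tested.

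Between the sexes, 3 of the 10 genes were lower in TG females than in TG males and 1 was lower in WT females than in WT males; of all 19126 genes, 11.3% were lower in females in TG and 11.3% in WT, among 21.2% that passed in either direction in TG and 21.3% in WT. Ccng1 was common to both. It was 185, 162 and 177 CPM in TG females, against 278, 234 and 231 CPM in TG males (log2 fold change -0.50 ± 0.10, edgeR adjusted p = 0.00243), and 201, 188 and 178 CPM in WT females, against 259, 212 and 252 CPM in WT males (-0.35 ± 0.09, adjusted p = 0.0186). The WT call was lost without WT female replicate 2, WT male replicate 0 or WT male replicate 2, with adjusted p up to 0.0801, and without the libraries that hold over 20 CPM of Adipoq. Zmat3 was 33.8, 30.1 and 29.2 CPM in TG females, against 44.7, 39.9 and 39.9 CPM in TG males (-0.42 ± 0.09, adjusted p = 0.00402). In WT kidneys Zmat3 went the same way but did not pass, averaging 32.7 CPM in females and 38.65 CPM in males (-0.24 ± 0.09, edgeR adjusted p = 0.0659). Gdf15 was 3.41, 3.18 and 3.74 CPM in TG females, against 7.36, 7.06 and 5.01 CPM in TG males (-0.91 ± 0.27, adjusted p = 0.0310). In TG the sexes did not overlap for these 3 genes, nor for Bbc3 and Mdm2, which did not pass. The same held for 38.7% of all genes tested. The Gdf15 call was lost on leaving out any 1 of 5 of the 6 libraries, all but TG male replicate 2, with adjusted p up to 0.101, and also without the libraries that hold over 20 CPM of Adipoq. A genotype by sex interaction passed for 0 of the 10 genes by edgeR, DESeq2 and limma-voom (1 had an unadjusted p under 0.05 by edgeR). Of all 19126 genes it passed for 1 by edgeR (0.00523%), 1 by limma-voom and 81 by DESeq2. Proximal tubule markers summed to 21920 to 26050 CPM in TG females and 31410 to 38410 CPM in TG males, and to 19610 to 24820 CPM in WT females and 30740 to 39470 CPM in WT males, without overlap. The 8 distal nephron and collecting duct markers, of which 7 were higher in females in each genotype, summed to 8474 to 8868 CPM in TG females and 5282 to 5621 CPM in TG males, and to 9077 to 9596 CPM in WT females and 4970 to 6796 CPM in WT males. The part of these marker differences in those of the 10 genes was not tested.

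Set side by side, Cdkn1a, Btg2 and Bbc3 had lower group means in both NX groups than in all 4 no-surgery groups, with scaling within each table and with all 30 libraries scaled together. Cdkn1a averaged 3.80 CPM in TG NX and 4.51 CPM in WT NX libraries, and 14.6 to 21.03 CPM in the 4 no-surgery groups. Btg2 averaged 11.8 CPM in TG NX and 10.9 CPM in WT NX libraries, and 20.9 to 31.5 CPM without surgery. Bbc3 averaged 1.11 to 1.197 CPM in the NX groups and 2.22 to 3.31 CPM without surgery. The no-surgery males were uneven, since Cdkn1a was 9.92, 38.8 and 14.4 CPM in TG and 8.58, 11.6 and 25.0 CPM in WT males. For Gdf15, Plk2, Pmaip1, Ccng1 and Zmat3 the order depended on the scaling. Gdf15 averaged 2.96 to 3.08 CPM in NX and 3.44 to 6.47 CPM in no-surgery groups with scaling within tables, but 3.21 to 3.35 CPM in NX and 3.01 to 5.76 CPM in no-surgery groups with joint scaling. Plk2 averaged 7.57 to 9.41 CPM in NX and 10.5 to 14.03 CPM in no-surgery groups within tables, but 8.21 to 10.2 CPM in NX and 9.21 to 12.5 CPM in no-surgery groups jointly. For Pmaip1 and Mdm2 the NX and no-surgery means overlapped within tables, at 6.69 to 7.16 CPM in NX and 4.81 to 7.26 CPM without surgery for Pmaip1, and at 37.3 to 42.4 CPM in NX and 42.3 to 47.0 CPM without surgery for Mdm2. With joint scaling the Pmaip1 means were higher in NX (7.28 to 7.76 CPM) than in no-surgery groups (4.21 to 6.35 CPM). Ccng1 and Zmat3 means overlapped within tables but were also higher in NX with joint scaling. Ccng1 was then 249.5 to 261.1 CPM in NX and 152.8 to 220.2 CPM without surgery, and Zmat3 39.6 to 44.0 CPM and 27.1 to 36.9 CPM. The no-surgery libraries stand in another table than the NX libraries, so surgery and the tables cannot be told apart and no test was made.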

How the data were processed

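Gene-level raw counts were deposited by the authors as 2 tables, one of the 18 NX and IRI libraries and one of the 12 no-surgery libraries. Per the submitters' processing notes, reads were handled with fastp 0.23.2, STAR 2.7.0 and featureCounts 2.0.3 on GRCm39, and per the file headers the annotation was Ensembl release 112 with an added GFP entry. The labels' protocols give poly-A libraries and paired reads. The read-pair and strand settings of the counting are not given in the sources used here. Every EGFP count was even, and odd values made up 37.3 to 41.9% of the genes with at least 10 counts in a library, so counts halved and rounded were tried as an alternative. Genes without a symbol held 0.079 to 0.119% of counts. No libraries were copies of each other: over the 219 pairs within tables, chi-square over degrees of freedom was at least 16.7.

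CPM used library sizes scaled by trimmed mean of M-values (TMM) within each table. Tests were edgeR 4.0.16 quasi-likelihood F tests (R 4.3.3) on genes kept by filterByExpr, with Benjamini-Hochberg adjustment over all genes tested and a threshold of 0.05. The 18-library fit served IRI against NX and the interaction, and the 12 no-surgery libraries shared a fit. TG against WT was fitted on the 12 IRI and on the 6 NX libraries alone. Scripts were tested on simulated counts. Alternatives were other scalings, no filter, DESeq2 1.42.0, limma-voom (limma 3.58.1), a replicate block, other library sets and leaving out each library. One more was chosen after seeing the data: leaving out the 3 libraries with over 20 CPM of Adipoq. Correlations used 100000 permutations, or all of them with 6 libraries.

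The 10 genes and every list were chosen with earlier results of these data known. Genes named beyond the 10 are Trp53, Mdm4, up to 3 genes of each list in each direction with the smallest p among those that passed in WT IRI against WT NX, and the 5 most correlated with Cdkn1a. Jun was picked after its values were seen. Replicate numbers come from the titles. Same-numbered libraries deviated together (every correlation over 0.1) in 1 comparison, TG against WT no-surgery males (r of 0.102 to 0.537), where the replicate block changed no call of the 10 genes. Promoter sequences were taken from RefSeq (GRCm38.p6).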

Additional observations from a re-analysis of the deposited data

How the results depend on the processing

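The 7 rises after IRI kept their direction and their call in both genotypes under every alternative run, and Phlda3 in WT IRI against WT NX was the one called value to change sign: its log2 fold change was -1.57 to 0.29 on leaving out single libraries, with 0.29 without WT NX replicate 0, the library of that comparison with fat-cell transcripts. The count of the 10 genes that passed in WT IRI against WT NX was 7 with the replicate block and with only the 2 groups compared, where neither Ccng1 nor Phlda3 passed, 8 with no filter, DESeq2 or limma-voom, and 8 to 9 on leaving out single libraries. In TG IRI against TG NX it was 8 under the replicate block and without each library in turn. For TG IRI against WT IRI the count of 1 became 2 with no low-count filter, with DESeq2 and with all libraries of the table, 0 with the replicate block and 0 to 1 on leaving out single libraries. With the block Plk2 had an adjusted p of 0.0614. For the interaction of genotype and injury, 0 became 1 with DESeq2. For WT females against WT males, 1 became 2 with relative log expression factors or the replicate block, 3 with DESeq2, 0 without the fat-cell libraries and 0 to 3 on leaving out single libraries; the cause was not tested for any of these.

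Over all genes, 12 calls in TG IRI against WT IRI became 43 with no filter, 363 with DESeq2, 5 with the block, 22 with all libraries and 0 to 109 on leaving out single libraries. The 2 calls in TG NX against WT NX became 127 with no filter, 45 with DESeq2, 1 with the block, 0 with all libraries, 15 without WT NX replicate 0 and 2 to 15 on leaving out single libraries. In no-surgery males 1 became 15 with no filter, 14 with DESeq2, 0 with limma-voom and 2 without the fat-cell libraries. In no-surgery females 8 became 19 with upper-quartile factors, 107 with no filter, 221 with DESeq2, 24 with limma-voom, 40 with the block, 14 with halved counts and 23 without the fat-cell libraries, and 1 to 22 on leaving out single libraries. The sex interaction of 1 became 37 with no filter, 81 with DESeq2, 11 with the block and 2 with upper-quartile factors, halved counts or without the fat-cell libraries, and the injury interaction of 0 became 41 with DESeq2. Of the single log2 fold changes of the 10 genes over all alternatives, 1720 kept their side of the threshold. A further 13 gained a call, 32 lost one and 2 were counted as reversed. Values that were not called could change sign and still be among the 1720. Cdkn1a in TG NX against WT NX, for example, ran over -0.538 to 0.335. DESeq2 gave no adjusted p for Phlda3 after IRI in either genotype. Scaling all 30 libraries together changed 23 of 80 group means by more than their SD. Outside the no-surgery males, r of same-numbered libraries ran from -0.0382 (TG with WT after IRI) to 0.414 (WT females with WT males). Whether such libraries share more than a number is not known, and the reason for calls lost under the block was not tested.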
